A study of Mus musculus with 16 samples.

Results

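Malat1 and Neat1, 2 well known long noncoding RNAs of the cell nucleus, were followed through a bortezomib time course. Both were chosen by gene symbol, as 2 of the 23356 genes in the tables, without regard to their values. The cells were NIH3T3, a mouse fibroblast line, stably expressing DD-sfGFP, a destabilizing domain derived from FKBP12 and fused to superfolder GFP. The domain is degraded by the proteasome unless its ligand is bound. According to the study's methods, the expressing cells were sorted for high GFP, so they were a sorted population.

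All 4 groups were made from the DD-sfGFP line and held 4 libraries each, 16 in total. The control group received no stress and was taken at 0 min. The other 3 groups were collected 45, 135 and 405 min after the start of exposure to bortezomib, an inhibitor of the proteasome. The labels give no dose, and vehicle-treated cells at the later times were not analysed here, so the drug and the elapsed time cannot be told apart. The labels do not say whether replicates were separate cultures, so the p-values measure the spread between these libraries, which may in part be technical.

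Malat1 is an abundant RNA found in nuclear speckles, which are stores of splicing factors. Neat1 is the scaffold of paraspeckles, nuclear bodies that hold RNA-binding proteins such as NONO and SFPQ. Neat1 has a short form that ends in a poly(A) tail and a long form that builds the paraspeckle, and Neat1 transcription and paraspeckles are known to increase under several kinds of stress, proteasome inhibition among them. Malat1 and the long form of Neat1 end without a poly(A) tail. RNase P cuts them upstream of a tRNA-like structure, and the new end folds into a triple helix of 2 U-rich stretches and an A-rich stretch.

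The genes are neighbours. In assembly NCBIM37 (mm9) with the GENCODE M1 annotation, Malat1 lies on the minus strand of chromosome 19, at chr19:5795690-5802671, a noncoding gene of 6982 bases with 5 annotated transcripts. Neat1 lies 22 kb upstream of it on the same strand, at chr19:5824708-5845478, and spans 20771 bases with 4 transcripts. On the opposite strand, Gm20417 overlaps Malat1 at chr19:5797562-5798549. It is not listed as a gene of its own in the tables and the use of strand in counting was not stated, so fragments from its overlap with Malat1 cannot be told apart.

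The sequences at the ends of these RNAs are shown because they bear on poly(A) selection, which the study's methods describe. The methods also name a NuGEN Encore kit for preparing libraries, and its use was not given library by library. These sequences are on the minus strand of NCBIM37, written 5′ to 3′ as DNA. The first covers exonic bases 6601 to 6750 of Malat1, at chr19:5795922-5796071. The second covers bases 20676 to 20825 counted from the start of Neat1, at chr19:5824654-5824803, and runs past the annotated end of the gene. Capitals mark every run of 10 or more bases that the last 600 bases of Malat1 share with the end of Neat1, searched from 200 bases before to 100 bases after its annotated end.
Malat1: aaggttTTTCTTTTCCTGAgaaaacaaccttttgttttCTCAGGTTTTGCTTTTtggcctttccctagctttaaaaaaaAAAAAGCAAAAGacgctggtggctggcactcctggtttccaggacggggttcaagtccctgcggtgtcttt
Neat1 long form: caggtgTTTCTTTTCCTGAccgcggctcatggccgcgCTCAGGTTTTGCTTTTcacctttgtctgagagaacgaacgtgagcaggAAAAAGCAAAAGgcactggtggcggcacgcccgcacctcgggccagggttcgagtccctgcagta
There were 3 shared runs, in the same order in both genes. TTTCTTTTCCTGA (13 bases) and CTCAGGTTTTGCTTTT (16 bases) hold the U-rich stretches, and AAAAAGCAAAAG (12 bases) holds the A-rich stretch, after which the tRNA-like part begins. Of 387612 windows of 150 bases on chromosome 19, 0.00619% held the first run on either strand, 0.000516% the second and 0.0155% the third, and 1 window held all 3. The runs were chosen because both genes hold them, and the windows did not leave these genes out. Their rarity is therefore no separate result.

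The short form of Neat1 ends differently. Bases 3133 to 3192 from the start of the gene, at chr19:5842287-5842346, were cut around an AATAAA, taken here as the poly(A) signal of the short form. The annotated end of the short transcript was not read. Capitals mark AATAAA, which 20.8% of windows of 150 bases also held.
Neat1 short form: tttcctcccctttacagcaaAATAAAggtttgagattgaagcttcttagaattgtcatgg
AATAAA also occurs in Malat1, 4 times as transcribed, the last starting at base 6961 and ending 16 bases before the annotated end of the gene. The deposited counts and FPKM values together imply the length over which each gene was counted. The median over libraries was 7.18 kb for Malat1 and 3.14 kb for Neat1, and values per kb use these medians. Replicate 1 of each later time departed from them. Malat1 was at 9931, 9474 and 5218 bases there at 45, 135 and 405 min, and Neat1 at 2377, 2162 and 3114 bases. The Neat1 values therefore describe the region of the short form, which both forms share, and do not separate the forms.

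The libraries were of 2 kinds, and this bears on every value. Depth ranged from 570323 to 19930375 fragments assigned to genes. The share of fragments in genes whose symbols begin with Rpl or Rps and a digit (97 genes, mostly of ribosomal proteins, with some pseudogenes and S6 kinase genes, called the ribosomal protein share here) was 4.25% to 9.42% in 7 libraries and 0.398% to 1.21% in the other 9, with none in between. Replicates 1 and 2 of both 45 and 135 min and replicates 1, 3 and 4 of 405 min made up the 7. All 4 controls were among the 9. Olfactory and vomeronasal receptor genes, which fibroblasts are not known to use, received 4.14% to 5.12% of the counted fragments in the 9, against 0.00531% to 2.61% in the 7. All 11 fibroblast markers, collagens and vimentin among them, were detected in each of the 7 libraries, where they summed to 0.352% to 2.47% of fragments. In the 9 libraries 10 or 11 were detected, at 0.0353% to 0.178%. The 13 markers of blood, epithelium, endothelium, muscle and neurons summed to 0.000321% to 0.0202% in the 7 libraries and 0.034% to 0.0477% in the 9. They exceeded the fibroblast markers in control replicate 4 (0.0397% against 0.0353%) and in 45 min replicate 3 (0.0464% against 0.0392%). In every other library the fibroblast markers had the larger share. Since no control had a high ribosomal protein share, exposure to bortezomib and the kind of library cannot be told apart in comparisons with control that use all libraries.

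Malat1 separated the 2 kinds of library completely. In control it was counted 482, 1846, 523 and 336 times (replicates 1 to 4), or 544, 2143, 587 and 388.5 CPM, counts scaled to a total of 1000000 over all fragments. At 45 min it reached 6007 and 11286 CPM in replicates 1 and 2 but 277 and 223 CPM in replicates 3 and 4. At 135 min the same split appeared, with 11203 and 5662 CPM against 202 and 363 CPM. At 405 min, replicates 1, 3 and 4 were at 5061, 8340 and 13202 CPM, and replicate 2 was at 1128 CPM. The 7 libraries over 4% lay between 5061 and 13202 CPM, and the 9 others between 202 and 2143 CPM, so the kinds did not overlap and their medians differed 21.5-fold. Malat1 ranked between the 1st and 9th gene by fragments in the former and between the 19th and 377th in the latter.

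Neat1 did not separate the kinds completely. In control it was counted 55, 72, 58 and 58 times, which gave 62.1, 83.6, 65.1 and 67.1 CPM. At 45 min the 4 replicates were at 31.6, 26.0, 46.3 and 49.7 CPM, all below every control. At 135 min replicates 1 and 2 were at 24.4 and 35.8 CPM, below every control, and replicates 3 and 4 were at 92.9 and 112.4 CPM, above every control. At 405 min the values were 107.7, 78.0, 38.3 and 70.8 CPM, which surrounded the controls. Over all libraries Neat1 varied 4.6-fold, where Malat1 varied 65.5-fold, and its kinds overlapped, at 24.4 to 107.7 CPM over 4% and 46.3 to 112.4 CPM in the others. The median over 4% was 0.534 times that of the others. All libraries over 4% except 405 min replicates 1 and 4 lay below every library of 4% or less.

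**Figure D1:**
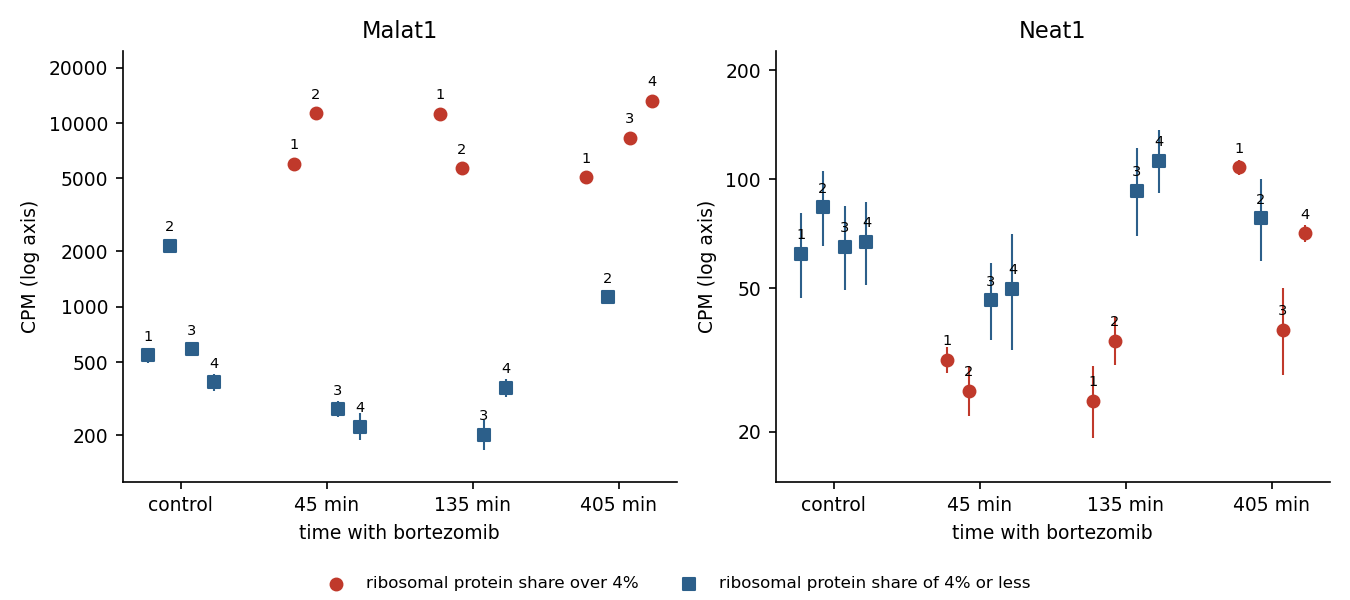
Malat1 (left) and Neat1 (right) in CPM on log axes, by group; each point is 1 library with its replicate number, and bars are 95% Poisson intervals, which cover counting error only. Malat1 lies at 5061 CPM or above in the libraries with a ribosomal protein share over 4% (circles) and at 2143 CPM or below in the others (squares), while Neat1 stays between 24.4 and 112.4 CPM in both.

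Against control, the edgeR quasi-likelihood fit of all 16 libraries put Malat1 higher by 2.77 (SE 1.71) on the log2 scale at 45 min, by 2.64 (SE 1.70) at 135 min and by 3.34 (SE 1.75) at 405 min. None passed the threshold, with Benjamini-Hochberg adjusted p of 0.49, 0.577 and 0.342 from edgeR. Neat1 differed from control by -0.67 (SE 0.49), -0.01 (SE 0.49) and 0.38 (SE 0.49) at the 3 times, with edgeR adjusted p of 0.567, 0.996 and 0.652. The background was the same: of 5030 genes tested, edgeR called 0 in each of the 6 comparisons among the groups (0% called), although 609, 394 and 728 genes were higher and 39, 68 and 76 lower than control at an unadjusted p under 0.05. Other tools called some genes, with DESeq2 calling 224, 8 and 351 higher than control at the 3 times, and edgeR's exact test 12 at 405 min. Neither called Malat1 or Neat1, and DESeq2 gave Neat1 no adjusted p at 45 and 135 min.

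The direction for Malat1 turned when libraries of the same kind were compared. Among the 9 libraries of 4% or less, both 45 min libraries and both 135 min libraries had fewer Malat1 CPM than every control, and the only 405 min library, at 1128 CPM, lay within the control range. The edgeR fit of these 9 libraries gave -1.86 (SE 0.58) at 45 min and -1.77 (SE 0.57) at 135 min, with unadjusted p of 0.00547 and 0.00741 and adjusted p of 0.999 and 0.295, so neither passed. Without control replicate 2, which had the most Malat1 of the controls, the differences were -1.02 (SE 0.35) and -0.92 (SE 0.35), with edgeR adjusted p of 1.0 and 0.576. In this fit 0% of 8366 genes were called at either time, while unadjusted p-values under 0.05 were found for 56 higher and 162 lower genes at 45 min and for 368 and 495 at 135 min. Neat1 in the same fit was at -0.53 (SE 0.47) and 0.47 (SE 0.45), with edgeR adjusted p of 0.999 and 0.763. The 9 libraries were not uniform. In 135 min replicate 3, 47.5% of genes were at 0, against 6.71% to 32.8% in the rest of the 9. Without that library the Malat1 difference at 135 min, which then rests on 1 library, was -1.39.

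**Figure D2:**
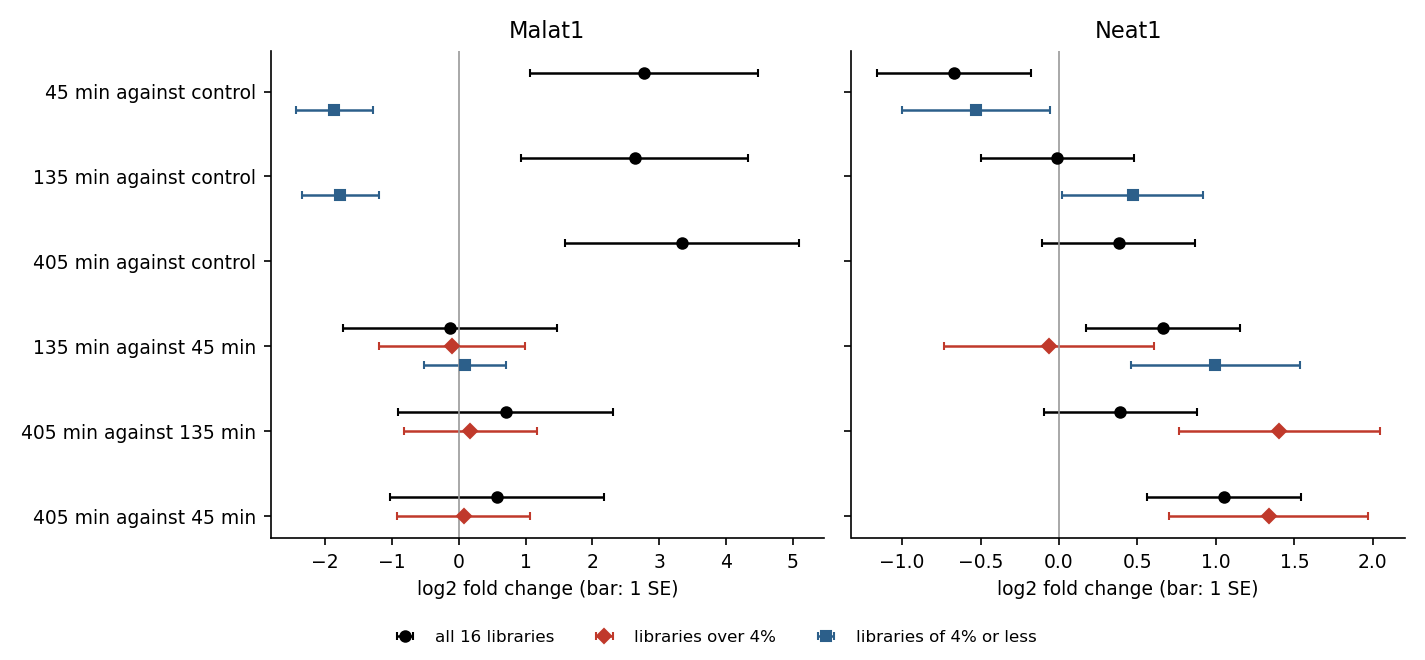
Log2 fold changes (points) with 1 SE (bars) of Malat1 (left) and Neat1 (right) from edgeR fits of all 16 libraries (circles), of the 7 libraries with a ribosomal protein share over 4% (diamonds, no control) and of the 9 others (squares, not drawn for 405 min, which has 1 library). Malat1 at 45 min lies at 2.77 with all libraries and at -1.86 in the 9 libraries, and Neat1 at 405 min against 45 min lies at 1.05 with all libraries and at 1.34 in the 7 libraries.

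The libraries over 4% allowed the course to be read from 45 to 405 min on 1 side of the threshold, although they were not uniform. Their receptor share was 0.00531% and 0.225% at 45 min and 0.364% and 1.42% at 135 min, and at 405 min it was 0.337%, 2.61% and 0.00671% in replicates 1, 3 and 4. Malat1 differed little there: 405 min differed from 45 min by 0.08 (SE 1.0) and from 135 min by 0.18 (SE 1.0), and 135 min from 45 min by -0.10 (SE 1.09). The geometric mean CPM stood at a ratio of 0.999 between 405 and 45 min. With SEs near 1, an absence of change is not shown. Neat1 in the 405 min libraries (107.7, 38.3 and 70.8 CPM) lay above all 4 libraries of 45 and 135 min (24.4 to 35.8 CPM), at 2.31-fold the 45 min level and 2.24-fold the 135 min level by geometric means. The share of all tested genes that lay apart in this way was not counted. In the edgeR fit of these libraries, the median log2 difference of all tested genes was 0.14 against 45 min and 0.16 against 135 min.

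The edgeR fit of these 7 libraries gave Neat1 a difference of 1.34 (SE 0.64) between 405 and 45 min and of 1.40 (SE 0.64) between 405 and 135 min, with unadjusted p of 0.0609 and 0.0522 and adjusted p of 0.691 and 0.909. Without 405 min replicate 3, these differences were 1.65 and 1.71. Neither passed, and 0% of the 8605 genes were called in these comparisons, while 259 were higher and 357 lower at 405 than at 45 min at an unadjusted p under 0.05. For 405 against 135 min these numbers were 126 and 160. With all 16 libraries, Neat1 at 405 min was 1.05 (SE 0.49) above 45 min, with an unadjusted p of 0.0458 and an adjusted p of 1.0 by edgeR. In the lowest of the 3 late libraries, 405 min replicate 3, the 53 Neat1 fragments allowed 28.7 to 50 CPM by a 95% Poisson interval, which overlaps the intervals of all 4 libraries over 4% at 45 and 135 min. Malat1 was at 0.57 (SE 1.60) in that comparison, where unadjusted p-values under 0.05 were found for 47 genes above and 42 below their 45 min level.

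Set against ribosomal protein fragments, Malat1 was far more even, but this scale divides by the share that defines the kinds. Between the kinds the median of that share differed 18.9-fold and that of Malat1 CPM 21.5-fold. The evenness between kinds therefore restates those 2 values and is no separate result. Per 1000 such fragments, the controls had 101, 177, 133 and 97.6 Malat1 fragments. The 45 min libraries had 72.0, 120, 67.8 and 52.6, and the 135 min libraries 132, 91.7, 34.8 and 83.6. At 405 min the values were 74.7, 124, 196 and 154. The whole range was 5.64-fold, and the kinds of library overlapped, at 72.0 to 196 over 4% and 34.8 to 177 in the others. At 45 and at 135 min, 3 of 4 libraries lay below every control, and at 405 min 1 did. The mean log2 differences from control were -0.73, -0.68 and 0.07, and 2-sided exact permutation tests gave p of 0.0857, 0.143 and 0.857, or 0.257, 0.286 and 0.971 adjusted over the 6 comparisons. With 4 libraries against 4, the smallest p possible is 0.0286.

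On this scale the kinds of library are set apart by the denominator, since the ribosomal protein share defines them and its median differed 18.9-fold, so the separation of Neat1 between kinds is no result. The controls had 11.5, 6.91, 14.7 and 16.8 Neat1 fragments per 1000 ribosomal protein fragments, and the libraries of 4% or less as a whole had 6.91 to 25.8. The libraries over 4% had 0.276 to 1.59. Within these 7, the 405 min libraries, at 1.59, 0.90 and 0.825, lay above the 45 and 135 min libraries, at 0.276 to 0.58. Within these libraries 405 min was thus the highest time for Neat1 on both scales, while its level relative to control differed between the scales.

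**Figure D3:**
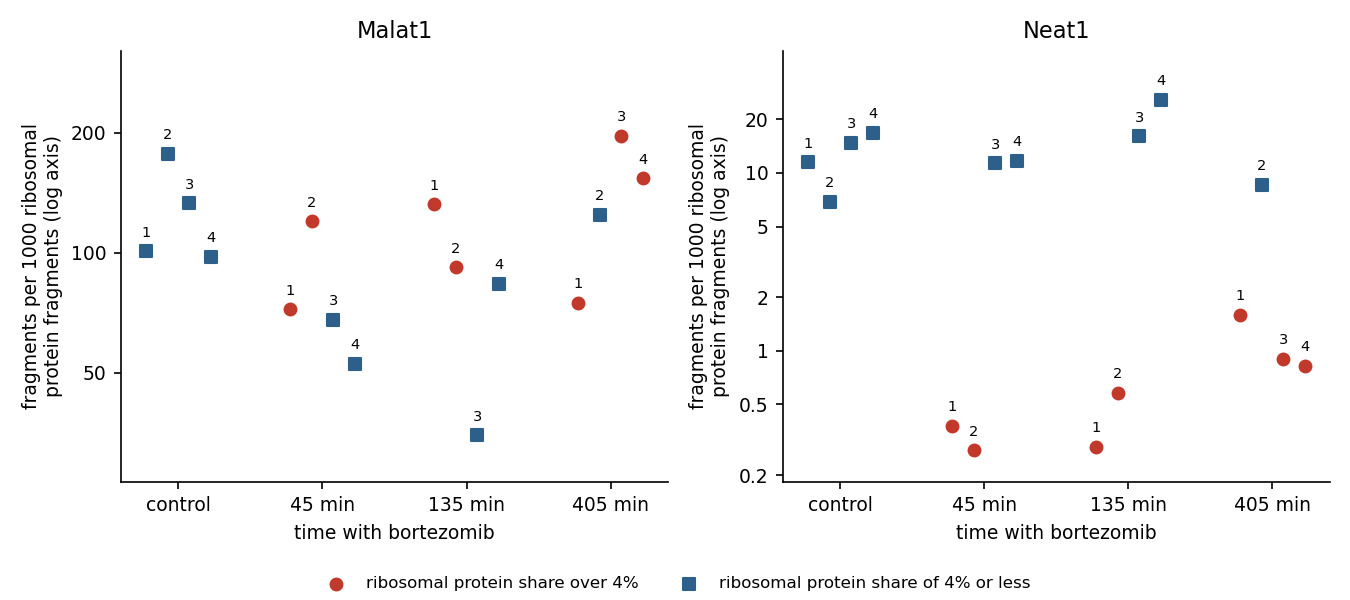
Malat1 (left) and Neat1 (right) per 1000 ribosomal protein fragments on log axes, by group; each point is 1 library with its replicate number, circles for a ribosomal protein share over 4% and squares for 4% or less. For Malat1 the circles (72.0 to 196) and squares (34.8 to 177) overlap, and for Neat1 the circles (0.276 to 1.59) lie below the squares (6.91 to 25.8), a separation fixed by the denominator, which also defines the kinds.

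The ratio of both genes within a library does not depend on depth or scaling. Control libraries had 11.4, 3.90, 11.1 and 17.3 Neat1 fragments per 100 Malat1 fragments. The libraries over 4% had 0.218 to 2.13, and those of 4% or less 3.90 to 46.1, with no overlap. The highest ratios were those of 135 min replicates 3 and 4, at 46.1 and 30.9. On the log2 scale the ratio differed from control by -1.89, -1.37 and -2.81 at 45, 135 and 405 min, with 2-sided exact permutation p of 0.4, 0.514 and 0.0571, or 0.657, 0.657 and 0.343 adjusted over 6 comparisons. Among the libraries of 4% or less the differences at 45 and 135 min had the other sign, 1.01 and 1.97. Among the libraries over 4%, the ratio was 1.21 higher at 405 than at 45 min, although it was 0.91 lower with all libraries (difference -0.91). The 3 late libraries over 4% had 2.13, 0.459 and 0.537 Neat1 per 100 Malat1 fragments against 0.526 and 0.231 at 45 min, so these overlapped.

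Receptor genes give a level against which both RNAs can be read as CPM per kb. In the libraries of 4% or less, the mean density of 1411 receptor genes, without the densest 5%, was 5.99 to 9.40, and Neat1 stood at 1.81 to 5.29 times this mean. Between 1.13% and 22.7% of receptor genes were denser than Neat1 in these 9 libraries. In 45 min replicate 1 and 405 min replicate 4, 0% of receptor genes were denser than Neat1, which had 10.1 and 22.6 CPM per kb there. In 405 min replicate 3 the share was 12.4%. Neat1 in the controls and in the other libraries of 4% or less was thus within the range of single receptor genes, and how much of its count has the same source as the receptor fragments was not tested. Malat1 stood at 4.4 to 40.7 times the receptor mean in the 9 libraries, and 0.142% to 15.4% of receptor genes were denser than it. In the low Malat1 libraries, the share was 15.4% in 135 min replicate 3, 6.66% in 45 min replicate 4, 2.27% in 135 min replicate 4 and 0.709% in 45 min replicate 3. This share was 1.06% in control replicate 4, and 0.142% in control replicates 1 to 3 and in 405 min replicate 2. Some receptor genes were thus denser than Malat1 in all 9 libraries, but very few in those with 0.142%. In control replicates 1 to 3 Malat1 stood at 9.14, 40.7 and 9.10 times the receptor mean. The 9 libraries are not marked off by this, since 0.0709% of receptor genes were denser than Malat1 in 405 min replicate 3, a library over 4%. How much of the Malat1 count has the same source as the receptor fragments was not tested.

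**Figure D4:**
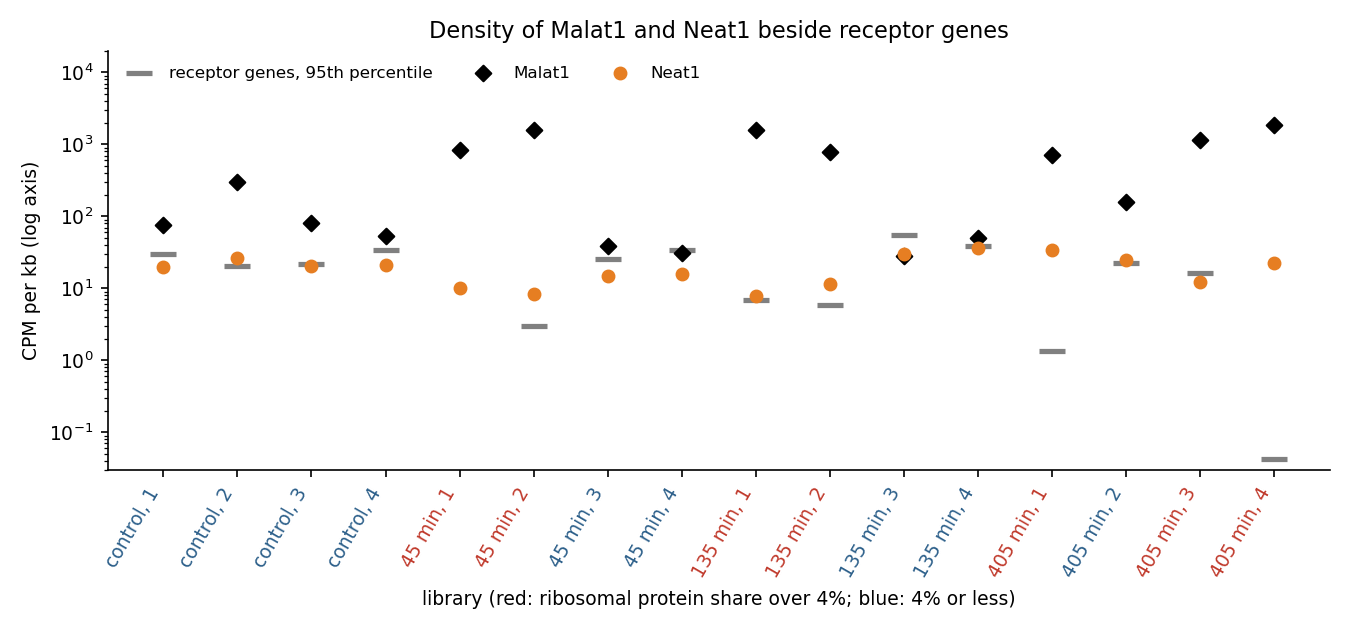
CPM per kb (log axis) of Malat1 (diamonds) and Neat1 (circles) in each library, beside the 95th percentile of 1411 olfactory and vomeronasal receptor genes (dashes); the percentile was 0 in 45 min replicate 1 and is not drawn. Neat1 lies near the dash in the libraries of 4% or less (blue labels), and Malat1 lies at 705 or above in the libraries over 4% (red labels).

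Compared per kb, Malat1 was 20.5 to 200.5 times as dense as Neat1 in the libraries over 4% and 0.948 to 11.2 times in the others. In 135 min replicate 3 the densities of the 2 RNAs were nearly equal, at 28.1 for Malat1 and 29.6 for Neat1.

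Genes beside Malat1 and Neat1 on chromosome 19 were mostly lower where Malat1 was higher, as most genes were. Of 13 flanking genes, 12 had a lower median CPM in the libraries over 4% than in the others, beside 76.1% of 21100 genes with a median above 0 in either kind, the exception being Sssca1, which was at 0 in 6 libraries. Frmd8, which lies 4.22 kb from Neat1 and encodes a partner of the iRhom proteins, had medians of 38.0 and 40.7 CPM. Of the 7 flanking genes tested with all libraries, 0 were called in any comparison by edgeR, and their median log2 difference between 405 min and control was 0.18, beside 0.11 for all tested genes. Ehbp1l1, an adaptor of membrane traffic, was the lowest of them at -0.99 (SE 0.81). In the libraries over 4%, 9 of the 10 tested had a positive difference between 405 and 45 min, with a median of 0.67 beside 0.14 for all genes.

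Protein genes of the 2 nuclear bodies were read from lists. Of 36 paraspeckle proteins 24 were tested with all libraries, and 0 were called higher or lower than control by edgeR at any time. Their median at 405 min against control was 1.2, with 18 positive and 6 negative, where the median of all genes was 0.11. Hnrnph1, a splicing regulator needed for paraspeckle formation, was the highest at 3.97 (SE 1.39), Zc3h6, a zinc finger gene, the lowest at -1.2 (SE 0.69), and Hnrnpf, its relative among the hnRNP proteins and the most abundant, was at 2.17 (SE 1.12). The edgeR adjusted p of these 3 genes lay between 0.285 and 0.372.

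Of 35 nuclear speckle and splicing proteins 27 were tested and 0 called, with a median of 1.61 and 25 positive, beside a median of 0.11 and 2672 positive of all 5030 genes. Tra2a, a splicing activator, was at 4.11 (SE 1.53). Rbm39, a splicing cofactor, was at 2.83 (SE 1.5), and Dyrk3, a kinase that dissolves speckles, was at -1.38 (SE 0.69). In the libraries over 4% these lists stood near 0 between 405 and 45 min, with medians of -0.10 over 32 paraspeckle genes and -0.16 over 34 speckle and splicing genes beside 0.14 for all genes, and 0 were called. Among the other genes listed, Trnt1, the enzyme that adds CCA to tRNA 3′ ends, was the only 1 of 12 RNase P and tRNA 3′ end genes tested with all libraries, at 1.65 (SE 0.87) with an edgeR adjusted p of 0.342.

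Of 35 other noncoding RNAs listed, 30 were in the tables and 8 were tested with all libraries, 0 of them called by edgeR, with a median of -0.10 at 405 min against control. Snhg5, a host of small nucleolar RNAs, was the highest at 4.92 (SE 1.41, adjusted p 0.285 by edgeR), with 3.33 to 28.4 CPM in control and 31.0 to 665.5 CPM at 405 min after TMM scaling. Kcnq1ot1, the antisense RNA that silences an imprinted gene cluster, was at -1.0 (SE 1.09), and Snhg11, another small nucleolar RNA host, was the lowest at -1.42 (SE 1.24). In the libraries over 4%, 13 of 18 tested had a positive difference between 405 and 45 min, with a median of 1.01 beside 0.14 for all genes and 0 called. Of 5 transcription factors known to act on Neat1, 3 were tested: Hif1a, the hypoxia factor, was the highest at 2.04 (SE 0.89, adjusted p 0.297 by edgeR) at 405 min against control and at -0.20 (SE 0.62) between 405 and 45 min in the libraries over 4%, and Atf2 was the lowest at 0.18 (SE 0.45).

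The genes whose levels ran most like Malat1 over the 16 libraries were Smap1 (Spearman rho 0.97), Rps6, Sltm and Ctsl (0.97 each) and Tmem33 (0.96), and the median over 60 tested ribosomal protein genes was 0.83. For Neat1 they were Ltbp2 (0.85), Aff1 (0.84), Ptprm and Zfp275 (0.81 each) and Cdc25a (0.79), with a median of -0.24 over the ribosomal protein genes. Malat1 and Neat1 stood at a rho of -0.31 with each other. These are descriptions over libraries that share kind, depth and scaling. Within the 7 libraries over 4%, the genes closest to Neat1 by Pearson's r were Plin2, a lipid droplet protein (0.98), B230120H23Rik and Zfp330 (0.97 each), Srxn1, a redox enzyme, and Hyou1, a chaperone of the endoplasmic reticulum (0.96 each), and those closest to Malat1 were Kif5b (0.99), Gtf3c3 (0.97), Psmc6 (0.96), Xrn2 (0.94) and Map3k7 (0.92). Malat1 and Neat1 were at -0.33 there.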

How the data were processed

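The authors deposited, for each of the 16 libraries, a table of estimated counts (raw fragments per gene) and FPKM values. Poly(A) selection is described in the methods, whereas the labels name total RNA. The methods also name a NuGEN Encore Complete kit, run on the Mondrian system, for library preparation. Which of these libraries were made in which way was not given. The methods give assembly mm9 and the submitters' processing notes mm10. The tables carry no coordinates, and the aligner was not given in the sources used here. Gene symbols that had become dates (27, in the file of 1 library) were restored from the row order. Of 120 library pairs, 0 held identical values.

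Counts were rounded and tested with edgeR 4.0.16 (R 4.3.3, quasi-likelihood, TMM, 1 mean per group, 12 residual degrees of freedom) on the 5030 genes (21.5%) with at least 1 count in every library. A gene was called at a Benjamini-Hochberg adjusted p under 0.05. The test was also run on simulated counts that did not hold both kinds of library, so that run does not measure its power here. Libraries with a ribosomal protein share over 4%, and the others, were also fitted alone. Ratios were compared by 2-sided exact permutation tests with a pseudocount of 1. CPM use all fragments unless TMM scaling is stated. The deposited FPKM values served only to find the counted gene lengths; lengths of other genes came from GENCODE M1 exons. Intervals cover counting error only, since PCR copies are not independent molecules. Where libraries of a time are said to lie above or below all those of another, the share of all genes that did so was not counted.

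The genes, lists and tests were chosen with earlier results of these data known. List examples were the tested members with the highest and lowest log2 difference at 405 min against control and the highest mean level, and the genes most like each RNA were the 5 closest by correlation among tested genes. Of the list examples, 1 gene is not reported here. Replicate numbers were checked for pairing by the correlation of deviations from group means. Over 24 same-numbered pairs it averaged 0.072 (-0.761 to 0.596), and all 4 pairs of 45 and 135 min libraries lay between 0.493 and 0.541, where the numbers also match the kind of library. The alternatives were other scalings, filters, tools and pseudocounts, the replicate number as a block, a covariate, 2-group fits and each library left out.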

Additional observations from a re-analysis of the deposited data

Results flagged for a closer look

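In 32 groups of 4 libraries checked for a single library far from the other 3, 2 stood out, where chance gives about 1 in 20 (1.6 of 32). Neat1 per 1000 ribosomal protein fragments was 8.595 in 405 min replicate 2, against 0.825 to 1.59 in the other 405 min libraries, and this library is the only one of its group with a ribosomal protein share of 4% or less (0.907%). Malat1 took 0.2143% of fragments in control replicate 2, against 0.0389% to 0.0587% in the other controls, and this library had the highest ribosomal protein share of the controls (1.21%).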

How the results depend on the processing

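Limits are depth (31 to 99 Neat1 fragments in each library of 4% or less), no control over 4% and the spread between replicates. The coefficient of variation was 79.1% with kinds mixed, 68.2% over 4% and 50.8% in the others. Under all alternatives, 0 adjusted p for either RNA passed the threshold. In fits with replicates in both groups, the lowest was that of Malat1, 0.0786 at 405 min against control with DESeq2. In libraries of 4% or less without 135 min replicate 4, Malat1 at 135 min was at -2.46 against control. That difference rests on a single 135 min library.

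Malat1 against control turned negative with the log2 ribosomal protein share as a covariate (-0.96, -0.89 and -0.33 at 45, 135 and 405 min), in libraries of 4% or less at 45 and 135 min (-1.86, -1.77), and per ribosomal protein fragments (-0.73, -0.68). That last scaling, and leaving out libraries within 1 kind, were chosen after seeing the data. Malat1 at 135 against 45 min, at -0.13, became 0.066 with the covariate, 0.093 in libraries of 4% or less and 0.049 per ribosomal protein fragments. Neat1 at 135 min against control, at -0.01, became 0.054 with filterByExpr or no filter, 0.090 with the covariate, 0.077 with only the 2 groups and 0.47 in libraries of 4% or less. Neat1 at 405 min against control became -0.17 with library size only and -2.73 per ribosomal protein fragments. The other reversals of Neat1 were 135 against 45 min over 4% (-0.067), 405 against 135 min in libraries of 4% or less (-0.29) and per ribosomal protein fragments (-0.69), and 405 against 45 min on that scale (-0.11). The ratio became 1.01, 1.97 and -0.47 against control in libraries of 4% or less, and 1.12 and 1.21 for 405 against 135 and 45 min over 4%. The 405 min group has 1 library of 4% or less, which was assumed to vary like the others. The cause of these changes was not tested.

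Genes called higher than control numbered 224, 8 and 351 with DESeq2 at 45, 135 and 405 min, 12 with edgeR's exact test at 405 min and 2 there in libraries of 4% or less. Lower genes at 405 min numbered 1 each with DESeq2, filterByExpr and no filter. For 405 against 45 min there were 3 higher and 2 lower with DESeq2, 1 higher with the exact test, 1 each way with the covariate, 2 higher in libraries of 4% or less, and 2 lower with filterByExpr and with no filter. For 405 against 135 min there were 1 lower with filterByExpr, 2 with no filter and 1 higher in libraries of 4% or less.

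With the replicate number as a block no call changed. Malat1 was then at 1.46, 1.39 and 4.47 and Neat1 at -0.69, -0.10 and 0.34 against control, and Malat1 moved from 0.70 to 3.09 at 405 against 135 min and from 0.57 to 3.01 at 405 against 45 min.

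With each of the 16 libraries left out in turn, the called counts stayed at 0. Malat1 against control ranged over 1.51 to 3.64 at 45 min, 1.43 to 3.50 at 135 min and 2.57 to 4.21 at 405 min, and between later times over -1.54 to 1.2 (135 against 45 min), -0.15 to 2.0 (405 against 135 min) and -0.20 to 1.76 (405 against 45 min). Neat1 against control ranged over -0.77 to -0.56 at 45 min, -0.44 to 0.25 at 135 min and 0.14 to 0.52 at 405 min, and between later times over 0.30 to 0.86 (135 against 45 min), 0.15 to 0.67 (405 against 135 min) and 0.82 to 1.18 (405 against 45 min). The log2 ratio against control ranged over -2.94 to -0.73 at 45 min, -2.58 to -0.0022 at 135 min and -3.59 to -2.28 at 405 min, and between later times over -0.68 to 1.89 (135 against 45 min), -2.81 to -0.23 (405 against 135 min) and -2.08 to 0.13 (405 against 45 min). Within the libraries over 4%, Malat1 ranged over -0.90 to 0.49, -0.37 to 0.92 and -0.50 to 0.66 in the same order. Within the libraries over 4%, Neat1 ranged over -0.19 to 0.056, 1.09 to 1.71 and 1.02 to 1.65 in the same order. Within libraries of 4% or less, Malat1 against control ranged over -2.12 to -1.02 at 45 min and -2.46 to -0.92 at 135 min, nearest to 0 without control replicate 2, and Neat1 over -0.59 to -0.43 and 0.14 to 0.65. Without 135 min replicate 3 or 4, the comparison of 135 min with control there rests on a single 135 min library. The number of genes called did not stay at 0 in those fits. With all libraries, without 405 min replicate 4, Malat1 at 405 min was 0.15 lower than at 135 min and 0.20 lower than at 45 min (differences of -0.15 and -0.20). Its difference between 135 and 45 min turned positive without 45 min replicate 1 or 2 or 135 min replicate 3 or 4, and the ratio's difference turned negative without any 1 of those libraries. Neat1 at 135 min against control turned positive without control replicate 2 or 135 min replicate 1 or 2, and the ratio at 405 against 45 min without 45 min replicate 4. Within the libraries over 4%, the sign for Malat1 turned without 45 min replicate 1 (405 against 45 min) or 2 (135 against 45 min), 135 min replicate 2 (135 against 45 min, 405 against 135 min) or 405 min replicate 4 (both 405 min comparisons), and that for Neat1 at 135 against 45 min without replicate 1 of either time.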
